A study of Mus musculus with 16 samples.

Results

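The genes that encode the subunits of the receptors for glutamate, GABA and glycine were followed in the mouse spinal cord after injury. Members were taken by gene symbol and not by their values. A symbol was a member if it named an AMPA (Gria), kainate (Grik), NMDA (Grin), delta (Grid) or metabotropic (Grm) glutamate receptor subunit, a GABA-A (Gabra, Gabrb, Gabrg, Gabrd) or GABA-B (Gabbr) subunit, or a glycine receptor subunit (Glra, Glrb). This gave 46 of the 24411 genes in the files, of which 26 encode glutamate, 15 GABA and 5 glycine receptor subunits.

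RNA was sequenced from a 5 mm piece of thoracic cord at the lesion, or at the matching level without a lesion, in 16 female C57BL/6J mice. In 14 mice the cord was compressed from the sides to 0.25 mm at 12 weeks of age. From 2 weeks after spinal cord injury (SCI) and for 4 weeks, 7 of them were given daily atorvastatin, a lipid-soluble cholesterol-lowering drug, at 10 mg/kg (SCI + Atorvastatin), and 7 were given its carrier of DMSO, PEG 400, Tween 80 and saline (SCI + Vehicle). Tissue was taken 6 weeks after injury. The third group was 2 mice with neither a lesion nor injections (Uninjured Control). Their cords were taken at a younger age than those of the SCI mice, by the study's methods, so that injury, surgery, the carrier and age cannot be told apart in any comparison with them.

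AMPA, kainate and NMDA receptors are cation channels opened by glutamate, assembled from several subunits and responsible for fast excitation. GABA-A and glycine receptors are chloride channels that carry fast inhibition, and in the cord the glycine receptor is a main brake on motor neurons. Metabotropic glutamate receptors and GABA-B receptors signal through G proteins and tune both, and some members, such as Grm3, Grm5 and Gabrb1, are also known from astrocytes.

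Libraries held 14823292 to 25579826 counts on genes. The controls differed from the SCI mice in ways that touch the members. The summed TPM (a level scaled for library size and gene length) of 5 liver transcripts was 6113 and 1120 in the controls and at most 13.4 in any SCI mouse. Of the genes whose mean over SCI mice was 50 to 200 counts, 32.3% were at 0 in both controls, while no SCI mouse had more than 2.08% of them at 0. Summed TPM of 5 skeletal muscle genes reached 2508 in SCI + Atorvastatin replicate 2 and 607 in SCI + Vehicle replicate 3, against group medians of 13.6 and 10.1. The part of these differences in the results for the receptor genes was not tested.

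Markers of neurons, astrocytes and oligodendrocytes were present in every group, as the label of spinal cord implies. Of 10 neuron markers, 5 were called lower in SCI + Vehicle and 8 in SCI + Atorvastatin against the controls, with median log2 fold changes of -0.62 and -0.80, where 9.55% and 14.0% of all genes were called lower. Microglia or macrophage markers had medians of 2.56 and 2.59, and astrocyte markers of 0.71 and 0.76, in the same comparisons. Of the 5 astrocyte markers, 1 went the other way, at -0.57 and -0.53. In a piece of tissue, fewer cells of a type and less RNA per cell cannot be told apart.

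In injured cord the most abundant receptor transcript was Glra1, the glycine-binding subunit of the adult glycine receptor (chr11:55514238-55608198, minus strand, GRCm38), at 157 to 245 TPM with a median of 204 TPM over the 14 SCI mice. Gabbr1, the GABA-binding subunit of the GABA-B receptor (chr17:37045966-37075067, plus strand), followed at 151 to 254 TPM. Grin1, the subunit required in every NMDA receptor (chr2:25291181-25319187, minus strand), stood at 126 to 210 TPM. These ranges overlapped, so the order of the leading genes did not exceed the spread between mice.

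Next came Gria4 at a median of 114 TPM, Gria2 at 110 TPM and Glrb, the subunit that anchors glycine receptors to the synapse, at 103 TPM, again with overlapping ranges. Below them, Grik5 led the kainate subunits at a median of 44.6 TPM, Gabra3 the GABA-A alpha subunits at 52.6 TPM and Gabrb1 the beta subunits at 47.8 TPM. Among metabotropic subunits Grm3 was at a median of 32.5 TPM, Grm5 at 31.3 TPM and Grm7 at 31.2 TPM, with ranges that overlapped almost completely. Grid1 led the delta subunits at 28.2 TPM. The plot of TPM by mouse shows this spread over the subunits.

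**Figure D1:**
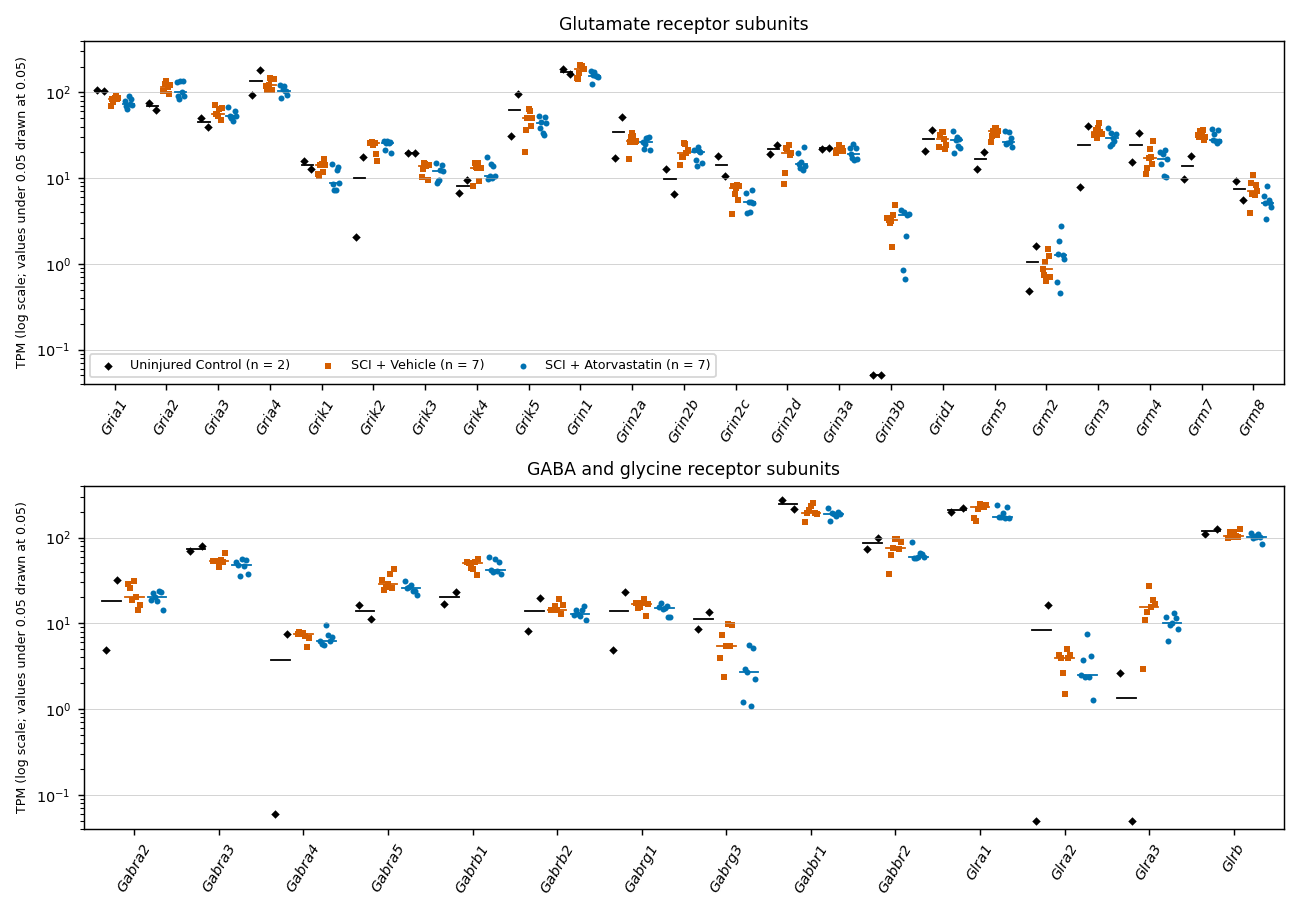
TPM of 37 of the 42 receptor subunit genes tested (log axis, values under 0.05 drawn at 0.05), glutamate receptor subunits above and GABA and glycine receptor subunits below. Each point is a mouse and each short line a group median. Glra1, Gabbr1 and Grin1 stand highest, Grin3b is at 0 in both Uninjured Control mice, and the 2 controls are far apart for Grik2, Grm3 and Glra2.

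At the other end 4 members had no group mean above 1 TPM and were not tested. Gabra6 and Gabrd, subunits best known from cerebellar granule cells, had at most 24 and 67 counts in any SCI mouse. Grm6, the receptor of retinal ON bipolar cells, had at most 8 counts, and Glra4 at most 85. All 4 had 0 counts in both controls, which allows up to 3 counts in each, or 0.144 CPM (counts scaled to library size by TMM), and covers counting error only.

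In SCI + Vehicle the receptor genes went both ways against the controls, with a median log2 fold change of -0.03 over the 42 members tested against 0.17 over all 16091 genes tested. Of the members, 5 were called lower, among them Gria1, Grik3, Grin2c and Gabra3. Another 6 were called higher: Gria2, Grik2, Grin3b, Grm5, Grm7 and Gabrb1. Grin3b, at 0 in both controls, entered the test only through the SCI mice and had to differ, so 5 is the count of higher calls without it. A call against controls required an adjusted p under 0.05 by edgeR and a change of more than 25%. The 5 lower members were 11.9% of the members, where 9.55% of all genes were called lower, and the 6 higher were 14.3%, where 19.8% were called higher. In this fit both shares were near or below the background. By DESeq2, the study's tool, 9 members were called lower, where 1955 of 15938 genes were. With a mean TPM above 1 required in every condition, 40 members stayed, 3 called lower and 4 higher. Of 12559 genes, 1137 were then called lower and 1261 higher, with a median of 0.03. The shares and the median of all genes thus depended on fit and filter, and the calls describe these genes rather than the receptors as a group.

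In SCI + Atorvastatin against the same 2 controls, 12 members were called lower and 5 higher. The lower calls held the 5 of the vehicle comparison and also Grik5, Grin2d, Grm4, Gabbr1, Gabbr2, Glra1 and Glrb. They were 28.6% of the members, where 14.0% of all genes were called lower. The higher calls were those of the vehicle comparison without Gria2, 11.9% of the members, where 24.9% of all genes were called higher, and were 4 without Grin3b. The median over the members was -0.23, against 0.21 over all genes. With a mean TPM above 1 required in every condition, 12 members were called lower and 4 higher. Of 12559 genes, 1936 were then called lower and 1774 higher, with a median of 0.02. The comparisons share their controls, so calls made in both are not separate evidence.

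By range of CPM alone, all 7 SCI + Vehicle mice lay below both controls for 8 members (19.0%, background 10.7%) and above both for 7 (16.7%, background 24.8%). All 7 SCI + Atorvastatin mice lay below both controls for 12 members (28.6%, background 14.2%) and above both for 7 (16.7%, background 29.8%). Grin3b, at 0 in both controls, is among the 7 above in each comparison and could not lie below. The background also holds genes at 0 in both controls. No member was called against controls by voom with a variance for each group, which lets the 2 controls vary more than the SCI mice. Its adjusted p was 0.392 to 0.587 for the 11 members called with vehicle, and it called 115 genes lower and 17 higher of all genes.

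**Figure D2:**
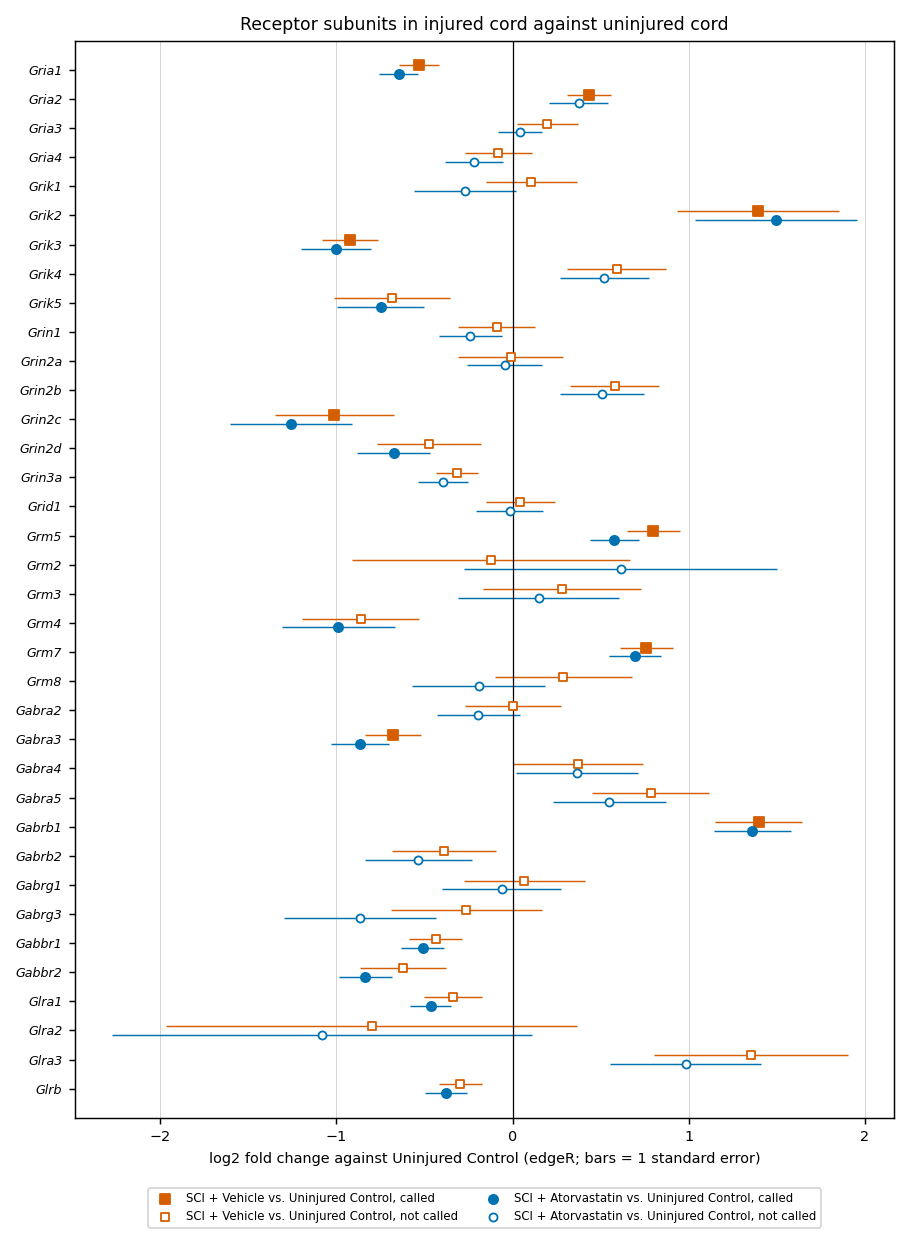
Log2 fold change of 36 receptor subunit genes in each SCI group against Uninjured Control, with bars of 1 standard error, squares for SCI + Vehicle and circles for SCI + Atorvastatin. Filled symbols passed the call rule. Gabrb1 and Grik2 lie farthest to the right among the called genes, and Grin3b, at 0 in both controls, is left out of the plot.

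With vehicle, 1 AMPA subunit was called lower and 1 higher. Gria1, a subunit of calcium-permeable AMPA receptors (chr11:57011387-57330244, plus strand), was at 302.1 and 251 CPM in the controls, at 174 to 214 CPM with a median of 198 CPM in SCI + Vehicle, and at 154 to 201 CPM with a median of 175 CPM in SCI + Atorvastatin. Every SCI mouse was below both controls. The log2 fold change was -0.53 ± 0.11 (SE, adjusted p = 0.00578, edgeR) with vehicle and -0.65 ± 0.11 (adjusted p = 0.00121) with atorvastatin. Both calls held without either control.

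Gria2, whose edited product makes AMPA receptors impermeable to calcium (chr3:80681450-80802835, minus strand), was at 182 and 155 CPM in the controls, at 201 to 257 CPM with a median of 222 CPM in SCI + Vehicle and at 174 to 259 CPM with a median of 213 CPM in SCI + Atorvastatin. All 7 vehicle mice were above both controls, and the atorvastatin mice overlapped control 1. The log2 fold change was 0.44 ± 0.13 (SE, adjusted p = 0.0242, edgeR) with vehicle and 0.38 ± 0.17 (adjusted p = 0.101) with atorvastatin. Without control 2 the vehicle call was lost, at 0.32 (adjusted p = 0.116). Gria3 and Gria4 were not called, with log2 fold changes of 0.20 and -0.08 with vehicle and 0.04 and -0.22 with atorvastatin.

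As a share of the TPM of Gria1 to Gria4, Gria2 was 22.9% and 16.3% in the controls, 29.9% ± 1.94 (SD, n = 7) in SCI + Vehicle and 31.3% ± 2.78 (SD, n = 7) in SCI + Atorvastatin. All 14 SCI mice were above both controls. The exact two-sided permutation test gave p = 0.0556 in each comparison, the smallest that 7 mice against 2 allow (adjusted p = 0.208 over the 15 share tests run). The treatments differed by 1.35 percentage points (exact permutation p = 0.313).

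Gria2 is a known target of the repressor REST, which binds an element called RE1 in neuronal genes. RefSeq promoter windows on GRCm38.p6, which run from before the start site to just after it, were at hand for 30 members. Both strands were searched for exact copies of the left part of RE1, TTCAGCACC, and of its right part, GGACAGC. Copies with a changed letter were not searched for, so a gene without an exact copy may still hold the element. The right part was found in Gria2, Grm2, Glra2 and Glrb, 13.3% of these members, and in 7.59% of 27025 genes. An exact left part was found only in Grm2 of the members, and in 0.433% of genes. Shown are the stretch of Gria2 (chr3:80802960-80803046), the called AMPA subunit that holds a match, and that of Grm2 (chr9:106656289-106656359), which holds both parts, each on the minus strand with the matches in capitals. In Gria2 the capitals are the right part read from the opposite strand.
Gria2: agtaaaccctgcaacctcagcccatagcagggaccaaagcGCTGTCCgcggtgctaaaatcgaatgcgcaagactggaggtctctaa
Grm2: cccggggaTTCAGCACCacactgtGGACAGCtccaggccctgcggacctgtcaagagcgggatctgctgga
A match is a run of letters and not a bound site. Grm2, a presynaptic receptor of group II, was at 0.65 and 1.95 CPM in the controls and at 0.54 to 3.93 CPM in the SCI mice, with no call in any comparison.

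**Figure D3:**
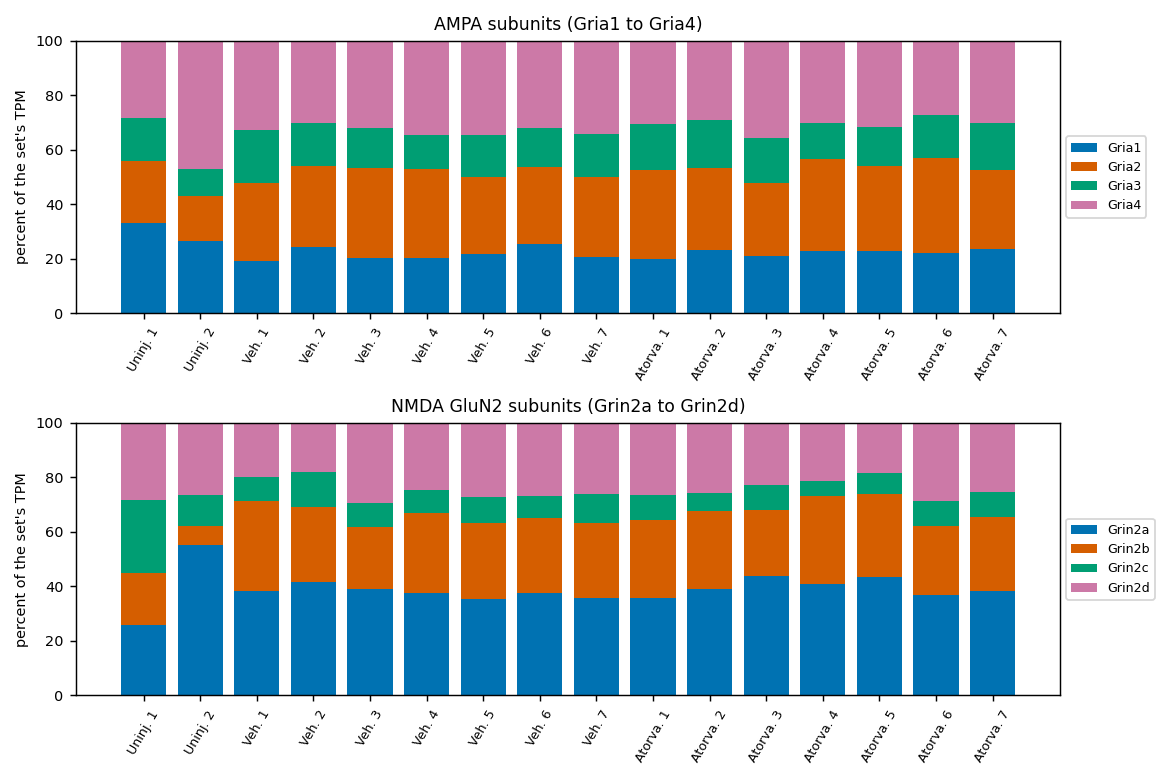
Percent of the summed TPM of the AMPA subunits (above) and of the GluN2 subunits of the NMDA receptor (below) taken by each gene in each of the 16 mice. The Gria2 block is 22.9% and 16.3% in the Uninjured Control mice and 27.0% to 35.0% in the SCI mice, and the controls also differ from each other.

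Among kainate subunits Grik2 and Grik3 moved in opposite directions. Grik3 (chr4:125490700-125714173, plus strand) was at 83.4 and 96.8 CPM in the controls, at 38.7 to 54.98 CPM with a median of 45.8 CPM in SCI + Vehicle and at 33.2 to 58.2 CPM with a median of 43.8 CPM in SCI + Atorvastatin. No SCI mouse reached the lower control. The log2 fold change was -0.92 ± 0.16 (SE, adjusted p = 0.0019, edgeR) with vehicle and -1.001 ± 0.20 (adjusted p = 0.00298) with atorvastatin.

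Grik2 (chr10:49094833-49788766, minus strand) was at 6.64 and 32.2 CPM in the controls, at 39.8 to 62.7 CPM in SCI + Vehicle and at 42.6 to 61.6 CPM in SCI + Atorvastatin, with medians of 51.2 and 55.7 CPM. In CPM every SCI mouse was above both controls, but the controls lay 4.85-fold apart. In TPM the lowest vehicle mouse, at 15.7, was below control 2, at 17.8. The log2 fold change was 1.39 ± 0.46 (SE, adjusted p = 0.0422, edgeR) with vehicle and 1.495 ± 0.46 (adjusted p = 0.0266) with atorvastatin. With vehicle it was 0.67 without control 1 and 2.94 without control 2. Leaving out any of SCI + Vehicle replicates 1 to 6 ended the vehicle call, with an adjusted p of at most 0.0700.

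Grik5 led the family in TPM and was called lower with atorvastatin at -0.75 ± 0.25 (SE, adjusted p = 0.036, edgeR). Its controls were at 75.2 and 165 CPM, and its SCI mice at 39.8 to 102 CPM, so the groups overlapped. Without control 2 the log2 fold change was -0.08, and 5 of 7 fits that left out an atorvastatin mouse also lost the call. Grik1 and Grik4 were not called, at 0.11 and 0.59 with vehicle and -0.27 and 0.52 with atorvastatin.

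The NMDA subunits were mostly not called. Grin1, at 253 and 146 CPM in the controls and at 136 to 233 CPM in the SCI mice, had log2 fold changes of -0.09 ± 0.22 and -0.24 ± 0.18 (SE) with vehicle and atorvastatin. Grin2c, a subunit of weakly magnesium-blocked NMDA receptors also known from glia (chr11:115249169-115267243, minus strand), was at 39.6 and 19.97 CPM in the controls, at 9.84 to 19.3 CPM with a median of 16.5 CPM in SCI + Vehicle and at 8.43 to 18.0 CPM with a median of 11.9 CPM in SCI + Atorvastatin. All SCI mice were below both controls, though the highest came close to control 2.

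For Grin2c the log2 fold change was -1.01 ± 0.34 (SE, adjusted p = 0.044, edgeR) with vehicle and -1.26 ± 0.35 (adjusted p = 0.0158) with atorvastatin. Both calls were lost without control 1, at -0.44 and -0.68, and the vehicle call was lost in 6 of 7 fits that left out a vehicle mouse. Grin2d, a subunit of slowly closing NMDA receptors, was called lower with atorvastatin, at -0.67 ± 0.21 (SE, adjusted p = 0.0258), and was at -0.48 ± 0.30 (adjusted p = 0.256) with vehicle.

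Grin3b, a subunit known from motor neurons that lowers calcium entry (chr10:79970715-79977190, plus strand), had 0 counts in both controls and 48 to 207 counts in the SCI mice. That is 2.25 to 6.89 CPM with a median of 4.63 CPM in SCI + Vehicle and 1.98 to 10.1 CPM with a median of 6.06 CPM in SCI + Atorvastatin. Against 3 counts in each control, the vehicle mean was at least 33.7-fold higher and the atorvastatin mean at least 38.5-fold higher. Grin3b passed the filter on low values only through the SCI groups, so it had to differ. It overlaps Tmem259 on the other strand, and the strand setting of the counting is not given in the sources used here. Genes at 0 in both controls were common in its range of counts, as stated above.

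Grin2b, the GluN2 subunit best known from developing circuits, was 19.1% and 6.93% of the TPM of Grin2a to Grin2d in the controls, 28.0% ± 2.97 (SD, n = 7) in SCI + Vehicle and 28.0% ± 2.75 (SD, n = 7) in SCI + Atorvastatin. No SCI mouse fell to the level of the controls (exact permutation p = 0.0556 for each, the smallest possible, adjusted p = 0.208), and the treatments did not differ beyond the spread (difference of 0.0601 percentage points, exact permutation p = 0.97). In counts, the SCI mice overlapped control 1, which was at 56.6 CPM against 53.8 to 82.3 CPM with vehicle, and Grin2b was not called, at 0.58 ± 0.25 (SE, adjusted p = 0.109, edgeR). Grin2a was at -0.01 and -0.04 and Grin3a at -0.31 and -0.39 with vehicle and atorvastatin, none of them called.

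Of the delta receptors, which bind glycine or D-serine and organize synapses, Grid1 was not called, at 0.04 with vehicle and -0.02 with atorvastatin. In the controls the measures could part. Counts per TPM were more than 2-fold away from the SCI median for 7 members in control 1 and for 2 in control 2, so shares of TPM against controls rest on values that the counts do not always match.

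Of the metabotropic subunits, 2 were called higher in both comparisons. Grm5, the group I receptor coupled to calcium release (chr7:87584168-88134907, plus strand), was at 64.8 and 72.1 CPM in the controls, at 99.0 to 139 CPM with a median of 121 CPM in SCI + Vehicle and at 84.5 to 117 CPM with a median of 102 CPM in SCI + Atorvastatin. All 14 SCI mice were above both controls. This was a log2 change of 0.80 ± 0.15 (SE, adjusted p = 0.00297, edgeR) with vehicle and 0.58 ± 0.14 (adjusted p = 0.00795) with atorvastatin.

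Grm7, a presynaptic group III receptor (chr6:110645581-111567230, plus strand), was at 39.2 and 32.9 CPM in the controls, at 55.8 to 66.0 CPM with a median of 63.5 CPM in SCI + Vehicle and at 51.6 to 65.6 CPM with a median of 55.6 CPM in SCI + Atorvastatin. Its SCI mice also lay above both controls. Its counts per TPM were more than 2-fold away from the SCI median in control 1. It had a log2 fold change of 0.76 ± 0.15 (SE, adjusted p = 0.00391, edgeR) with vehicle and 0.70 ± 0.15 (adjusted p = 0.00429) with atorvastatin. Grm4, another group III receptor, was called lower with atorvastatin at -0.99 ± 0.32 (SE, adjusted p = 0.0323) and was at -0.86 ± 0.33 (adjusted p = 0.0726) with vehicle. The Grm4 call was lost without control 2, at -0.68, and without SCI + Atorvastatin replicate 2.

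Grm3, the group II receptor of astrocytes and neurons, was at 11.7 and 66.1 CPM in the controls, one below and the other above all 14 SCI mice, which lay between 37.0 and 54.6 CPM. Its share of metabotropic TPM was 12.5% and 29.4% in the controls and 25.1% ± 2.54 and 24.2% ± 2.46 (SD, n = 7 each) with vehicle and atorvastatin, so the groups overlapped (exact permutation p = 0.444 for each against controls and 0.515 between treatments).

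**Figure D4:**
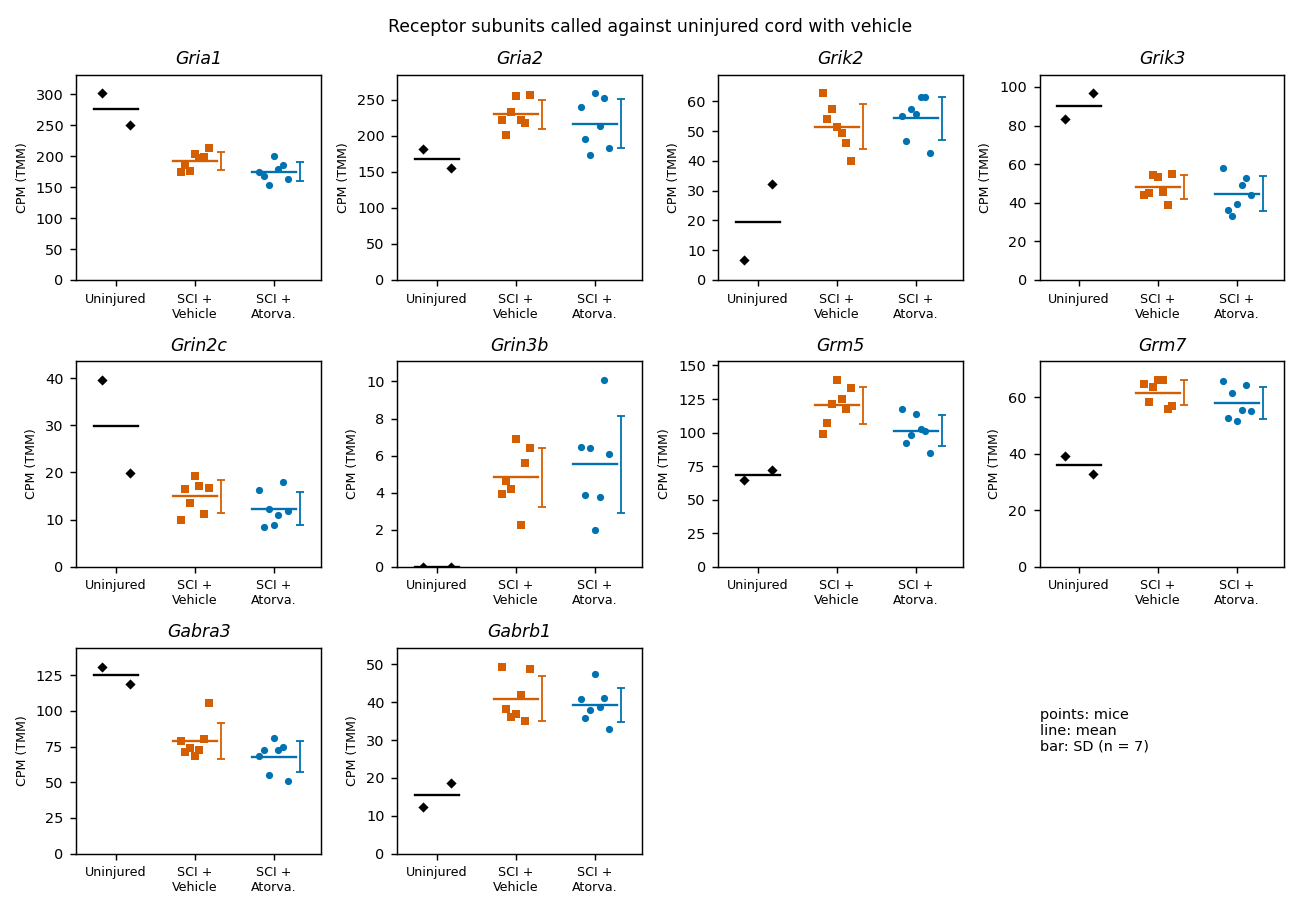
CPM after TMM scaling of 10 receptor subunit genes called in SCI + Vehicle against Uninjured Control, with axes from 0. Points are mice, lines group means and bars 1 SD (n = 7). All are also called with atorvastatin except Gria2, and in none does a vehicle mouse reach the range of the controls.

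Several GABA-A subunit genes lie side by side in the genome, among them Gabrg1, Gabra2, Gabra4 and Gabrb1 on chromosome 5. The log2 fold changes of these 4 had medians of 0.22 with vehicle and 0.15 with atorvastatin, and 1 of them, Gabrb1, was called.

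Gabrb1 (chr5:71658113-72149037, plus strand), which overlaps the start of Gabra4 on the other strand, was at 12.2 and 18.6 CPM in the controls, at 35.1 to 49.3 CPM with a median of 38.3 CPM in SCI + Vehicle and at 33.0 to 47.4 CPM with a median of 38.8 CPM in SCI + Atorvastatin. Every SCI mouse was far above both controls. This was a log2 change of 1.40 ± 0.24 (SE, adjusted p = 0.002, edgeR) with vehicle and 1.36 ± 0.22 (adjusted p = 0.000824) with atorvastatin, and no left-out mouse ended either call. Gabra4 itself was at 0.37 in both comparisons, not called.

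Gabra3, the most abundant alpha subunit (chrX:72432681-72656848, minus strand), was at 131 and 119 CPM in the controls, at 68.3 to 105.5 CPM with a median of 74.1 CPM in SCI + Vehicle and at 51.2 to 81.0 CPM with a median of 72.3 CPM in SCI + Atorvastatin. All SCI mice were below both controls. On the log2 scale the difference was -0.68 ± 0.16 (SE, adjusted p = 0.0092, edgeR) with vehicle and -0.87 ± 0.16 (adjusted p = 0.00219) with atorvastatin.

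Over all 42 members tested, the 2 controls lay on both sides of all 14 SCI mice for 7 (16.7%), against 13.3% of all genes. Among these 7 were Grm3, Gabra2, Gabrb2, Gabrg1 and Glra2. Gabra2, Gabra5, Gabrb2, Gabrg1 and Gabrg3 were not called in either comparison.

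The GABA-B subunits, which work as a dimer, had log2 fold changes of the same sign. Gabbr1 was at 643 and 451 CPM in the controls, at 331 to 466 CPM with a median of 404 CPM in SCI + Vehicle and at 338 to 409 CPM with a median of 382 CPM in SCI + Atorvastatin. Gabbr2 was at 170 and 210.3 CPM in the controls, at 72.2 to 159 CPM with a median of 123 CPM in SCI + Vehicle and at 95.1 to 140 CPM with a median of 98.5 CPM in SCI + Atorvastatin. In CPM Gabbr2 was below both controls in every SCI mouse, and Gabbr1 only in every atorvastatin mouse. In TPM the highest Gabbr2 values, 97.4 with vehicle and 89.4 with atorvastatin, lay between the controls at 72.6 and 98.8. The highest Gabbr1 value with atorvastatin, at 220 TPM, was above control 2, at 217 TPM.

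With atorvastatin both were called, Gabbr1 at -0.51 ± 0.12 (SE, adjusted p = 0.00715, edgeR) and Gabbr2 at -0.84 ± 0.15 (adjusted p = 0.00168). With vehicle neither passed, Gabbr1 at -0.44 ± 0.15 (adjusted p = 0.0519) and Gabbr2 at -0.62 ± 0.24 (adjusted p = 0.0785). The Gabbr1 call was lost without control 1, at -0.23, and the Gabbr2 call when log2 TPM was fitted by limma.

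Of the glycine receptor subunits, Glra1 and Glrb were called lower with atorvastatin and no tested member with vehicle. Glra1 was at 299 and 290.0 CPM in the controls, at 172 to 287 CPM with a median of 246 CPM in SCI + Vehicle and at 189 to 251 CPM with a median of 204 CPM in SCI + Atorvastatin. In CPM all 14 SCI mice were below both controls, the highest vehicle mouse by little. In TPM the controls, at 197 and 221, lay inside the ranges of 157 to 245 with vehicle and 168 to 237 with atorvastatin. Glra1 was called with atorvastatin at -0.47 ± 0.12 (SE, adjusted p = 0.00981, edgeR) and was at -0.34 ± 0.17 (adjusted p = 0.151) with vehicle. The Glra1 call was lost when log2 TPM was fitted by limma. Glrb was called with atorvastatin at -0.38 ± 0.12 (adjusted p = 0.0309) and was at -0.30 ± 0.12 (adjusted p = 0.0905) with vehicle, and its call was lost without control 2 and without SCI + Atorvastatin replicate 6.

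Glra2, the subunit best known from the fetal glycine receptor, had 0 counts in control 1, 400 in control 2 and 51 to 206 in the SCI mice, so no direction could be read. Its share of the TPM of Glra1 to Glra4 was 0% and 6.95% in the controls, 1.65% ± 0.65 with vehicle and 1.65% ± 0.954 with atorvastatin (SD, n = 7 each), with exact permutation p = 0.444 for each against controls and 0.994 between treatments. Glra3 was at 1.35 ± 0.55 (SE, adjusted p = 0.0883, edgeR) with vehicle and 0.98 ± 0.43 (adjusted p = 0.0961) with atorvastatin, not called.

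Summed over all members, receptor TPM was 1657 and 1995 TPM in the controls, 1578 to 2117 TPM with a median of 1844 TPM in SCI + Vehicle and 1486 to 1978 TPM with a median of 1615 TPM in SCI + Atorvastatin, so the groups overlapped. The 10 neuron markers summed to 10426 and 13182 TPM in the controls and to 6595 to 10739 TPM in the SCI mice. Per 100 TPM of neuron markers, the receptors held 15.9 and 15.1 TPM in the controls, 18.7 to 26.1 TPM in SCI + Vehicle and 19.9 to 23.2 TPM in SCI + Atorvastatin. Every SCI mouse was above both controls. This ratio is given without a test, since the markers and members were chosen with results of these data known.

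Excitatory and inhibitory channels were also set against each other, with no test. Glutamate-gated channel subunits made up 56.0% and 56.2% of the summed TPM of glutamate-gated, GABA-A and glycine receptor subunits in the controls, 54.0% to 58.0% in SCI + Vehicle and 53.5% to 58.5% in SCI + Atorvastatin. The controls lay inside the range of both SCI groups.

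Proteins that escort and anchor the receptors were read from a list of 34 genes. With vehicle 7 were called lower and 6 higher, and with atorvastatin 10 lower and 6 higher, with medians of -0.26 and -0.39 against 0.17 and 0.21 over all genes. Of all genes, 9.55% were called lower and 19.8% higher with vehicle, and 14.0% and 24.9% with atorvastatin. Dlg1, a scaffold of glutamate receptors, was at 96.8 and 96.5 CPM in the controls and at 154 to 167 CPM in SCI + Vehicle (log2 fold change 0.71 ± 0.10 SE, adjusted p = 0.000565, edgeR). Shisa7, an auxiliary protein of AMPA and GABA-A receptors, was at 3.32 and 6.35 CPM against 17.8 to 29.7 CPM (2.33 ± 0.36, adjusted p = 0.00106), and Cnih3, an AMPA receptor escort, had 0 CPM in both controls and 1.28 to 4.27 CPM with vehicle. Cnih3 is among the 6 called higher in each comparison. It entered the test only through the SCI mice and had to differ.

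With atorvastatin the smallest p belonged to Cacng2, the AMPA receptor escort stargazin, at -1.61 ± 0.18 (SE, adjusted p = 0.000101, edgeR), and to Dlg4, the postsynaptic scaffold PSD-95, at -0.88 ± 0.11 (adjusted p = 0.000204), followed by Dlg1 at 0.77 ± 0.10 (adjusted p = 0.00027). Of 19 genes that move or make the transmitters, 6 were called lower and 2 higher with vehicle, and 9 lower and 2 higher with atorvastatin, with a median of -0.50 in each, where 9.55% of all genes were called lower and 19.8% higher with vehicle, and 14.0% and 24.9% with atorvastatin. Those with the smallest p with vehicle were Slc1a3, the astrocyte glutamate transporter, at 0.71 ± 0.11 (adjusted p = 0.00117), Shmt2, a mitochondrial enzyme of glycine metabolism, at -1.13 ± 0.21 (adjusted p = 0.00255), and Slc6a11, the GABA transporter of astrocytes, at -0.86 ± 0.18 (adjusted p = 0.0046). With atorvastatin they were Slc32a1, which loads GABA and glycine into vesicles, at -1.39 ± 0.13 (adjusted p = 3.98e-05), Slc1a3 at 0.76 ± 0.09 (adjusted p = 0.000153) and Slc6a11 at -1.06 ± 0.13 (adjusted p = 0.000207). Slc17a8, among the 2 called higher in each comparison, was at 0 CPM in both controls. It entered the test only through the SCI mice and had to differ.

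Between the treatments no receptor gene was called. The rule here was an unadjusted p under 0.001 by edgeR with a change of more than 25%, which 0.106% of all genes passed, and no gene of all tested had an adjusted p under 0.05. Of the 42 members, 39 had a lower estimate with atorvastatin than with vehicle, against 50.3% of all genes, with a median log2 fold change of -0.15. The members share mice and are not independent, so this count has no test. The 10 neuron markers were also lower in 10 of 10, with a median of -0.16, while the 5 fibroblast markers were higher in 5 of 5, with a median of 0.84. Whether the receptor estimates move with this make-up of the tissue was not tested. The median was -0.11 without SCI + Vehicle replicate 7 and -0.13 without SCI + Atorvastatin replicate 2, the library with the most skeletal muscle RNA.

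An unadjusted p under 0.05 was reached by 5 members, all lower with atorvastatin, or 11.9% of the members, where 3.01% of all genes were lower at this limit. The count depended on single mice. It was 10 without SCI + Vehicle replicate 1, 9 without replicate 2 or 6 of that group and 8 if SCI + Atorvastatin replicate 1 or 4 was left out. Dropping replicate 7 of either group gave 4. Gabrg3, a less common gamma subunit (chr7:56716465-57387188, minus strand), was at 5.34 to 9.21 CPM with a median of 7.70 CPM in SCI + Vehicle and at 3.08 to 6.96 CPM with a median of 4.76 CPM in SCI + Atorvastatin. All 7 atorvastatin mice were below the vehicle median, though the groups overlapped. On the log2 scale the difference was -0.63 ± 0.22 (SE, adjusted p = 0.68, edgeR), with an approximate 95% interval of -1.06 to -0.20.

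Grm8, a presynaptic group III receptor (chr6:27275119-28135178, minus strand), was at 10.9 to 21.6 CPM with a median of 12.8 CPM in SCI + Vehicle and at 6.61 to 14.2 CPM with a median of 9.10 CPM in SCI + Atorvastatin. In 6 of 7 atorvastatin mice it was below the vehicle median. Between treatments the log2 difference was -0.50 ± 0.18 (SE, adjusted p = 0.68, edgeR). Grik1 (chr16:87895900-88290265, minus strand), a kainate subunit, was at 18.6 to 28.1 CPM with vehicle and at 12.6 to 21.9 CPM with atorvastatin, with medians of 22.05 and 16.2 CPM.

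For Grik1 the log2 fold change between treatments was -0.40 ± 0.15 (SE, adjusted p = 0.68, edgeR), and all 7 atorvastatin mice were below the vehicle median. Grm5 differed by -0.24 ± 0.09 (SE, adjusted p = 0.68), again with 7 of 7 atorvastatin mice below the vehicle median. For Grm5, higher after injury, the atorvastatin mice lay nearer to the controls. Of the other members called higher with vehicle, the estimates of Gria2, Grm7 and Gabrb1 were also nearer, and those of Grik2 and Grin3b farther. The estimates of the 5 members called lower with vehicle lay farther from the same 2 controls with atorvastatin. Gria1 was at -0.53 with vehicle and -0.65 with atorvastatin, and Gabra3 at -0.68 and -0.87. Between treatments their unadjusted p was 0.0678 and 0.0689 (edgeR). Of the 5 members with an unadjusted p under 0.05 between treatments, none passed the adjustment over all genes.

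For the abundant subunits the approximate 95% interval of the log2 fold change between treatments ran from -0.34 to 0.04 for Glra1, from -0.36 to 0.02 for Grin1, from -0.24 to 0.05 for Gabbr1 and from -0.26 to 0.10 for Gria2. Grm2, the member with the largest positive estimate, was at 0.71 ± 0.52 (SE, adjusted p = 0.803) on 10 to 101 counts. The spread between mice was of ordinary size: the members' median coefficient of variation was 14.2% with atorvastatin and 16.2% with vehicle, against 17.0% and 20.7% over all genes.

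**Figure D5:**
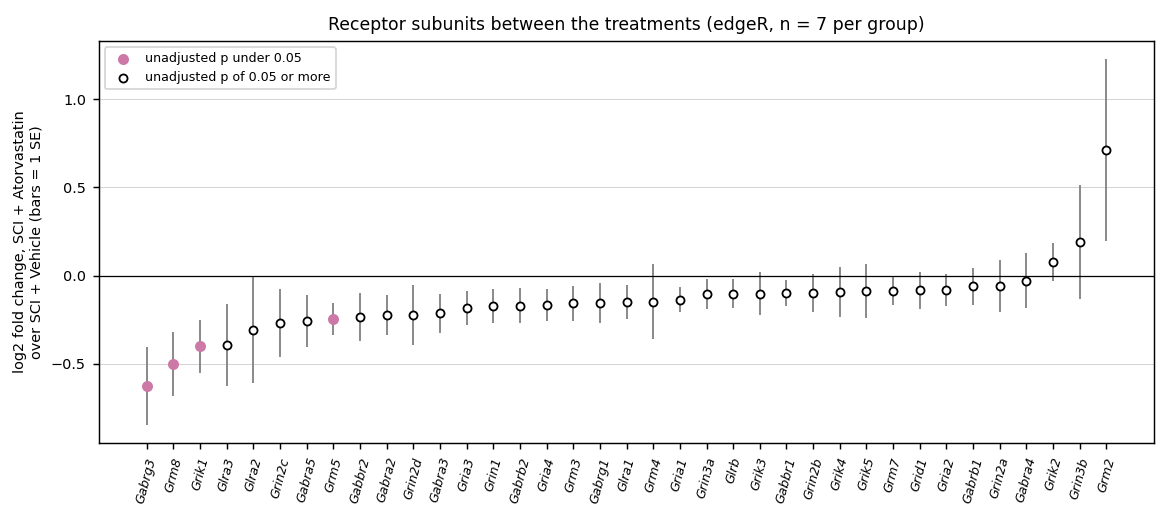
Log2 fold change of 37 receptor subunit genes, SCI + Atorvastatin over SCI + Vehicle (n = 7 each), in order of size, with bars of 1 standard error. The 34 genes at the left lie below 0, the 4 filled points have an unadjusted p under 0.05, and Grik2, Grin3b and Grm2 lie above 0.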

How the data were processed

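The authors trimmed, aligned and quantified the reads, and the submitters' processing notes name FastQC 0.12.1, Trimmomatic 0.38, STAR 2.5.4b, RSEM 1.3.1 and the mm10 build. The deposited files hold whole-number counts per gene, with no normalization, and TPM per gene, scaled by the authors for gene length and library. How the counts were made whole and the strand setting are not given in the sources used here. Replicates are separate mice per the labels. The 16091 genes whose mean TPM passed 1 in any condition entered a quasi-likelihood F test on counts (edgeR 4.0.16 under R 4.3.3, TMM scaling, the 2 groups of each comparison fitted alone), with Benjamini-Hochberg adjustment over all of them. Standard errors are the log2 fold change over the square root of F, and levels are TMM-scaled CPM. Shares of TPM were compared by exact two-sided permutation tests over mice in scipy 1.17.1. DESeq2 1.42.0 and limma 3.58.1 served as alternatives, the fit without a filter, other scalings, left-out mice and the replicate block among them. The script was tested on simulated data. Gene positions are GRCm38 and promoter letters RefSeq GRCm38.p6. Every member is counted, and some are not reported here by name. Described by mouse are the most abundant of each family, those called in both injury comparisons, the 5 with the smallest p between treatments, members of the 5 shares and those at 0 in a control, and of each further list the 3 called genes with the smallest p. Grin2d, Grik5, Grm4, Gabbr2 and Glrb are also described, after their values were seen. Members and lists were chosen with earlier results of these data known. Plots used matplotlib 3.10.9 in Python 3.11.15.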

Additional observations from a re-analysis of the deposited data

Results flagged for a closer look

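Within the groups of 7 mice, 5 values stood far from the other mice of their group by Dixon's test at 95%, of 84 groups examined, where chance alone gives about 1 in 20, or 4.2. Grm8 was at 21.6 CPM in SCI + Vehicle replicate 4, with the next mouse at 13.9 CPM and a group median of 12.8 CPM. Gabra3 was at 105.5 CPM in SCI + Vehicle replicate 7, with the next at 80.1 CPM. Glrb was at 160.6 CPM in the same mouse, with the next at 134.0 CPM. Gabbr2 was at 139.7 CPM in SCI + Atorvastatin replicate 1, with the next at 113.9 CPM. Glra2 was at 8.49 CPM in SCI + Atorvastatin replicate 4, with the next at 4.62 CPM. All 5 were the highest of their group.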

How the results depend on the processing

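Counts of members called against the 2 controls changed with the fit, and the cause was not tested. With vehicle, the 5 lower members became 9 by DESeq2, where 1955 of 15938 genes were called lower, against 1536 of 16091 in the main fit. They became 8 with all 3 groups in 1 fit (2218 of all genes). They became 3 with a mean TPM above 1 required in every condition (1137 of 12559 genes). By limma they became 1 on log2(TPM + 0.1) and 0 on log2(TPM + 1), where 687 and 689 genes were lower. They became 0 by voom with group quality weights and with the replicate block, where 115 and 1 of all genes were lower. The 6 higher became 10 by limma on either scale, and 0 by voom and with the replicate block. Of all genes, 3190 were higher in the main fit. By limma 3763 were higher on log2(TPM + 1) and 4234 on log2(TPM + 0.1), by voom 17, and with the replicate block 15. With atorvastatin, the 12 lower became 6 by limma on either scale, the 5 higher became 10, and both became 0 by voom and with the replicate block. Of all genes, 2256 were lower and 4004 higher in the main fit. By limma 1238 were lower and 5078 higher on log2(TPM + 1), and 1241 and 5486 on log2(TPM + 0.1). By voom 127 were lower and 18 higher, and with the replicate block 0 and 0. The median of all genes rose from 0.17 to 0.49 with vehicle by limma on log2(TPM + 1). Leaving out 1 mouse gave 3 to 9 lower and 5 to 11 higher with vehicle, and 10 to 19 lower and 5 to 10 higher with atorvastatin. The largest counts were without a control: 9 and 19 lower without control 1, and 11 and 10 higher without control 2, with vehicle and atorvastatin. Without control 1 the higher calls with atorvastatin were 9, and without SCI + Vehicle replicate 1, 2, 3 or 6 the lower calls with vehicle were 3. A lone control is assumed to vary like the SCI mice. The replicate numbers do not pair the mice: same-numbered SCI mice correlated at -0.19 to 0.11, and 0 of 7 matched their own number best. Between the treatments 0 members were called in every fit, with 37 to 40 lower. No direction of a called member reversed. With 2 controls, no exact test against them can reach 0.05, and genes with few counts have wide errors.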
